A study of Mus musculus with 12 samples.

Results

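The mitochondrially encoded transcripts of mouse heart were described across infarction and weekly prednisone, a synthetic glucocorticoid. Members were all genes of the deposited expression table whose symbol starts with mt-, and 13 of the table's 33641 gene symbols met this rule. All 13 are protein-coding genes, each with 1 transcript row. The mouse annotation (GENCODE M21, build GRCm38) places 37 genes on the mitochondrial genome, and its other 24, which are 2 ribosomal RNAs and 22 transfer RNAs, were not analysed here.

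Myocardium came from male C57BL/6 wild-type mice of about 10 weeks at treatment and about 16 weeks by the labelled age. Surgery was either a sham operation or one producing a myocardial infarction (MI), and from 2 weeks later the mice received weekly intraperitoneal vehicle or prednisone at 1 mg/kg for 6 weeks, injected at lights-on. Hearts were sampled 24 hours after the final dose from 3 mice in each of 4 groups (sham vehicle, sham prednisone, MI vehicle and MI prednisone), giving 12 libraries of stranded mRNA. The labels do not say which region of an infarcted heart was taken.

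The mitochondrial genome is a small circle whose strands are both transcribed into long RNAs, and these are cut, mostly at transfer RNAs, into messenger, ribosomal and transfer RNAs. The messenger RNAs encode subunits of the respiratory chain and of ATP synthase, which are assembled with many nuclear-encoded subunits. Heart muscle is rich in mitochondria, so these RNAs are abundant there. Complex I (NADH dehydrogenase) takes 7 of the 13 genes, mt-Nd1 to mt-Nd6 with mt-Nd4l. Complex III, which passes electrons from ubiquinol to cytochrome c, takes mt-Cytb. The catalytic core of complex IV (cytochrome c oxidase) is encoded by mt-Co1, mt-Co2 and mt-Co3, and the membrane part of ATP synthase (complex V) includes the products of mt-Atp6 and mt-Atp8. Of the 13 genes, mt-Nd6 lies alone on the minus strand.

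A cluster of nuclear copies of mitochondrial DNA bears on every value below. On chromosome 1 (chr1:24611535-24616197, minus strand, GRCm38), 4663 bases hold 7 annotated unprocessed pseudogenes, each near-identical to a mitochondrial gene. Reads from such stretches cannot be assigned to one of the pair, so the deposited value of a gene and of its copy are each uncertain, as is their division. Gm28661 matched mt-Co2 at 681 of 681 bases, Gm10925 matched mt-Atp6 at 678 of 678, Gm28437 matched mt-Co3 at 783 of 783 and Gm10222 matched mt-Nd4l at 294 of 294. Gm28439 matched 876 of 876 bases of mt-Nd4, covering 63.6% of that gene. Both Gm10222 and Gm28439 were at 0 TPM in all 12 libraries, so adding copies leaves mt-Nd4l and mt-Nd4 unchanged. Only 2 single-base differences were found within the aligned parts. Counting from 1 at the 5′ end of the mitochondrial gene, they were A1066T between mt-Co1 and Gm29216 and T3C between mt-Nd3 and Gm28438. Gm29216 covers only 31.3% of mt-Co1, from base 1063 to base 1545 at its 3′ end. Of the 492 bases of Gm29216, 483 aligned, starting at base 10 of the copy. These stretches are shown because they hold the base that differs within each aligned part, with the differing base in capitals, each 5′ to 3′ on the gene's own strand (mt-Co1 at chrM:6390-6417, Gm29216 at chr1:24616161-24616188, mt-Nd3 at chrM:9459-9485, Gm28438 at chr1:24613093-24613119).
mt-Co1: ggaAttgttttatccaactcatcccttg
Gm29216: ggaTttgttttatccaactcatcccttg
mt-Nd3: atTaacctgtacactgttatcttcatt
Gm28438: atCaacctgtacactgttatcttcatt

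For mt-Co2 and Gm28661 nothing inside the aligned stretch differs, and only the last 3 bases of the mitochondrial gene, in capitals, lie beyond the copy (mt-Co2 at chrM:7649-7696 on the plus strand, Gm28661 at chr1:24614885-24614929 on the minus strand).
mt-Co2: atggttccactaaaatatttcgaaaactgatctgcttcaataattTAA
Gm28661: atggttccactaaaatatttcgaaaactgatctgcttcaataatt

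Of the 13 members, 6 have no near-identical copy in the cluster: mt-Nd1, mt-Nd2, mt-Nd5, mt-Nd6, mt-Cytb and mt-Atp8, apart from bases that mt-Atp8 shares with mt-Atp6. Values are given as deposited and, where it matters, with the copy's value added to its parent.

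Overlapping genes are another limit on these values. The end of mt-Atp8 and the start of mt-Atp6 overlap by 43 bases (chrM:7909-7969 and chrM:7927-7987), and mt-Nd4l and mt-Nd4 overlap by 7 bases (chrM:10144-10173 and chrM:10167-10196). Each pair is known to be carried on 1 messenger RNA. The junctions are shown because ratios within these RNAs are used below, and the overlap is in capitals, on the plus strand.
mt-Atp8 end: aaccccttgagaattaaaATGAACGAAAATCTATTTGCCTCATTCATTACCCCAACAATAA
mt-Atp6 start: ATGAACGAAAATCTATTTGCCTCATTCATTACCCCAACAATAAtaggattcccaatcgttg
mt-Nd4l end: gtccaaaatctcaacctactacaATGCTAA
mt-Nd4 start: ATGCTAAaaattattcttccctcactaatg

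The genes mt-Nd5 and mt-Nd6 overlap by 14 bases on opposite strands. Use of strand in the quantification is not given in the sources used here, so reads of mt-Nd6 and reads antisense to it cannot be told apart.

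Values are in TPM, a share of each library's RNA corrected for transcript length, with each library summing to 1000000 TPM. The number of reads is unknown, so no counting error can be given and the precision rests on the spread between mice. The number of genes of at least 1 TPM was 11690.0 to 12772 in 11 libraries and 14307 in MI vehicle 3. That library also had the lowest summed TPM of 12 cardiomyocyte markers (28473, against 35118 to 46895 in the other 11) and the highest of 10 macrophage markers (1531, against 317 to 962). No marker of cardiomyocytes, fibroblasts, endothelium, macrophages, smooth muscle, erythroid cells or atrium was at 0 in any library. In bulk tissue, fewer cells of a type and less RNA per cell cannot be told apart.

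The 13 rows together took 36.1%, 36.5% and 42.0% of all TPM in the sham vehicle hearts. With prednisone, sham hearts had 35.5%, 37.2% and 32.4%. In MI vehicle hearts the total was 35.2%, 36.7% and 23.1%, and in MI prednisone hearts it was 24.6%, 21.6% and 35.9%. Group means were 38.2% ± 3.27 (SD, n = 3) for vehicle and 35.1% ± 2.43 for prednisone after sham surgery, and 31.6% ± 7.45 and 27.4% ± 7.54 after MI. Each infarcted group overlapped the sham prednisone range, and the spread within each infarcted group came from 1 library: MI vehicle 3 was low, and without it that mean was 35.9%, whereas MI prednisone 3 was high, and without it that mean was 23.1%.

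The chromosome 1 copies took a further 12.3%, 10.6% and 13.0% with vehicle and 13.0%, 13.2% and 14.6% with prednisone in sham hearts, and 10.2%, 11.3% and 9.32% with vehicle after MI. They took 17.7%, 20.3% and 15.3% in MI prednisone, where every library was above the other 9. With copies added the group means became 50.2% ± 4.19, 48.7% ± 1.67, 41.9% ± 8.33 and 45.2% ± 5.28 in the same order (SD, n = 3 each). The order of the infarcted group means thus reversed when the copies were counted as a plain sum, within overlapping ranges. That sum counts Gm29216 (492 bases) in full beside mt-Co1 (1545 bases). Gm29216 averaged 93141 TPM in MI prednisone and 35952 TPM in MI vehicle. Totals with copies weighted by length are not given here, so the reversal holds for the plain sum only.

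**Figure D1:**
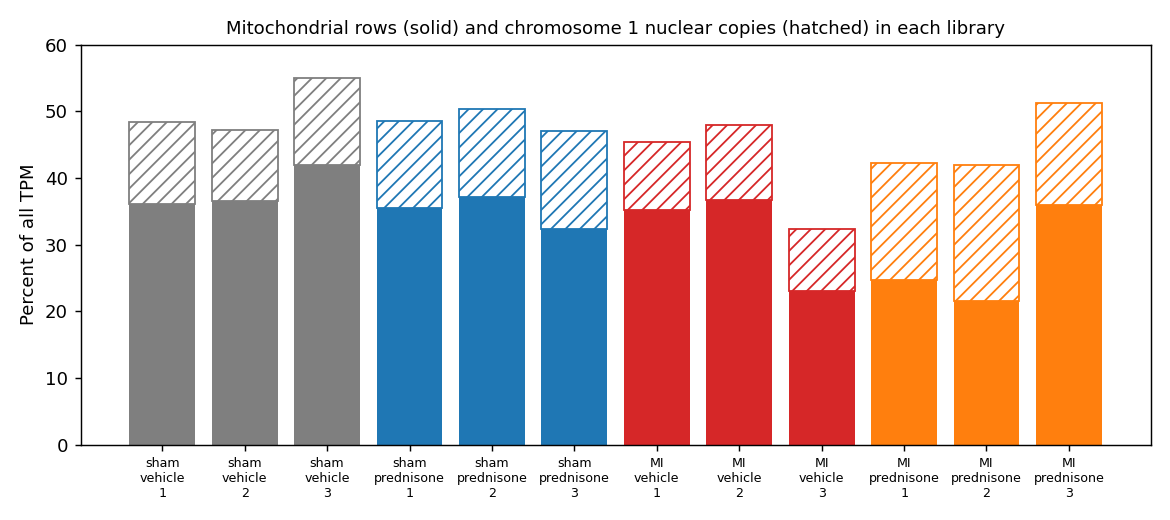
Percent of all TPM taken by the 13 mitochondrial rows (solid bars) and by the chromosome 1 nuclear copies (hatched, stacked on top) in each of the 12 libraries, coloured by group. The hatched part is largest in the 3 MI prednisone libraries, from 15.3% to 20.3%, and the lowest full bar is MI vehicle 3 at 32.4%.

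The summed TPM of erythroid markers, which are abundant enough to displace other RNAs, ran from 26712 in sham vehicle 3 to 98117 in MI prednisone 1. Sham vehicle 3, the lowest, had the highest mitochondrial total (42.0%), but MI prednisone 2, with 47715.5, had the lowest (21.6%). Sham vehicle 1 and MI vehicle 1, with 96732 and 96406.5, had totals of 36.1% and 35.2%. The part of blood RNA in the totals was not tested.

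Among the members, mt-Co1 had the highest level in sham vehicle, at 71422 ± 4358 TPM (SD, n = 3), followed by mt-Atp6 at 48511 ± 4801. The next group of mt-Atp8 (36511 ± 3657), mt-Nd4l (34654 ± 4358) and mt-Cytb (34203 ± 2326) did not differ from each other beyond their spread. Next came mt-Co3 (29434 ± 3438) and mt-Nd1 (29239 ± 3010), which overlapped. Below them stood mt-Nd4 (22520 ± 1855), mt-Nd6 (20510.3 ± 2407) and mt-Nd2 (18768 ± 1869), and then mt-Nd3 (14257 ± 1613), mt-Nd5 (11556 ± 1142) and mt-Co2 (10550 ± 336).

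The place of the complex IV genes in this order depended on the copies. With copies added, mt-Co1 stood at 113526 ± 7401 TPM, mt-Co2 at 62335 ± 4480 and mt-Co3 at 54905 ± 4101 (SD, n = 3), so that mt-Co2 moved from the lowest place to the second. Because Gm29216 is shorter than mt-Co1, a plain sum of their TPM overstates mt-Co1, and with Gm29216 weighted by its length relative to mt-Co1 the level was 84830 ± 4953. The short genes mt-Atp8 (204 bases) and mt-Nd4l (297 bases) carry a further uncertainty, since TPM of very short transcripts depends on the effective length used, which is not given in the sources used here.

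Across all 12 libraries, mt-Co2 had the widest relative range as deposited, from 2396 to 24740.3 TPM, a ratio of 10.3 and a coefficient of variation of 65.1%. With Gm28661 added the range was 39422 to 73302 TPM, the ratio 1.86 and the coefficient of variation 13.7%. For mt-Co3 the coefficient of variation was 29.5% as deposited and 11.0% with Gm28437 added. Among members without a copy it was highest for mt-Nd5 (39.4%) and lowest for mt-Cytb (13.4%).

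**Figure D2:**
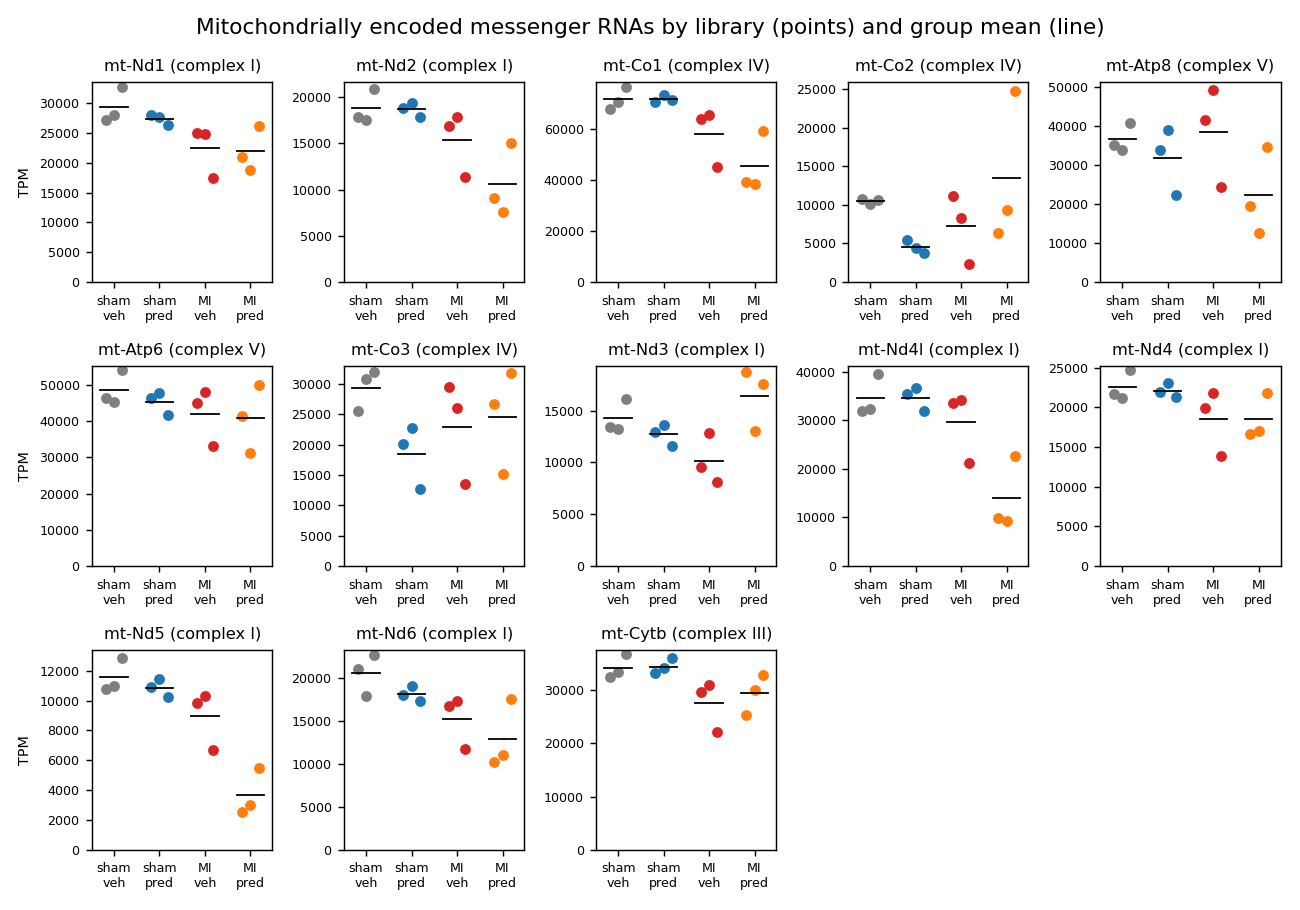
TPM of each of the 13 mitochondrial messenger RNAs, as deposited, with a point for each library, a line for the group mean, and axes starting at 0. The 3 MI prednisone points of mt-Nd5 lie below all other points, and the mt-Co2 panel shows 1 MI prednisone library at 24740.3 TPM above the rest.

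Infarction was first compared with sham surgery in vehicle-treated hearts. Of the 13 members, 0 passed the test (limma on log2(TPM + 1), adjusted p under 0.05, with Benjamini-Hochberg adjustment over all genes), while 16.0% of the 13158 genes tested did, and 2 members were below an unadjusted p of 0.05. Without limma's intensity trend the count was also 0. The members' median log2 change was -0.32, beside 0.39 for all genes tested. Without MI vehicle 3, these medians were -0.14 and 0.19. After median-ratio rescaling, which equalises the libraries on their median gene ratios, the members' median was -0.78 and 0 members passed.

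In 6 of the 13 members all MI vehicle values lay below all sham vehicle values, where 4.17% of all genes did so. These were mt-Nd1, mt-Nd3, mt-Nd5, mt-Nd6, mt-Co1 and mt-Cytb. Their log2 changes ran from -0.51 (SE 0.19, limma adjusted p = 0.0740) for mt-Nd3 to -0.32 (SE 0.19, adjusted p = 0.197) for mt-Co1, so none of the 6 passed. The widest change of any member was that of mt-Co2, -0.80 (SE 0.55, adjusted p = 0.255), which became -0.33 with its copy added. For mt-Atp8 the change was 0.01 (SE 0.36). With copies added, 6 members again lay wholly below sham vehicle, but mt-Co2 and mt-Co3 took the places of mt-Nd3 and mt-Co1, which overlapped. The change was then -0.33 (limma adjusted p = 0.211) for mt-Nd3 and -0.28 (adjusted p = 0.131) for mt-Co1. The share of all genes separated in this way with copies added is not given here.

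Other cell types moved in this comparison, in which 1981 of the 13158 genes tested rose and 119 fell. Of 10 fibroblast markers 9 rose, of 10 macrophage markers 9 rose, of 10 endothelial markers 6 rose, of 8 smooth muscle and pericyte markers 3 rose, of 6 atrial markers 1 rose, and of 12 cardiomyocyte markers 3 fell. Their part in the mitochondrial values was not tested. Without MI vehicle 3, those counts were 7, 7, 2, 1, 1 and 1, with 1 cardiomyocyte marker rising.

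Within prednisone-treated mice, 4 members were lower in infarcted than in sham hearts and 0 were higher, against 14.1% of all genes called lower and 16.8% called in all. The 4 were mt-Nd5, mt-Nd4l and mt-Nd2 of complex I and mt-Co1 of complex IV. The members' median log2 change was -0.33, and that of all genes was -0.06. Markers of cell types also moved: 3 of 12 cardiomyocyte markers and 1 of 8 smooth muscle and pericyte markers fell, 1 of 6 atrial markers rose, and of 10 endothelial markers 2 rose and 3 fell. Of the fibroblast, macrophage and erythroid markers, 0 passed. Their part in the mitochondrial values was not tested.

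The complex I gene mt-Nd5 encodes one of the large membrane subunits of the proton-pumping arm. It measured 10928, 11450.2 and 10247 TPM in sham prednisone and 2499.5, 3001 and 5475 TPM in MI prednisone. The groups were far apart, and MI prednisone was also below sham vehicle (10807, 10991 and 12870.0) and MI vehicle (9839, 10283 and 6689). Its log2 change from sham was -1.65 (SE 0.26, limma adjusted p = 0.00239), and it passed in all 24 alternative analyses, with a change from -1.99 to -1.42. Adding copies could not move its change, since it has no copy in the cluster.

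The companion gene mt-Nd4l, a small membrane subunit of complex I, measured 35473, 36736 and 31979 TPM in sham prednisone and 9800.2, 9299 and 22742 in MI prednisone. The groups did not overlap, and MI prednisone 3 was well above MI prednisone 1 and 2. The log2 change was -1.44 (SE 0.31, limma adjusted p = 0.00919). It held in 21 of 24 alternatives, and was lost without a filter on low values and after a correction for transcript length. Adding copies could not move the change of mt-Nd4l, since Gm10222 was at 0 TPM.

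For mt-Nd2, another core membrane subunit, the values were 18854, 19302.5 and 17836 TPM in sham prednisone and 9119.7, 7577 and 15042 in MI prednisone. Again MI prednisone 3 was nearest to the sham hearts, and the groups did not overlap. The log2 change of -0.88 (SE 0.24, limma adjusted p = 0.0278) no longer passed without any one of sham prednisone 1, 2 or 3 or of MI prednisone 1 or 2, the adjusted p then being 0.0693 to 0.113.

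The catalytic subunit gene mt-Co1 measured 70328, 73108.5 and 71227 TPM in sham prednisone and 39286, 38453 and 58885 in MI prednisone. These ranges did not overlap, and the log2 change was -0.68 (SE 0.19, limma adjusted p = 0.0307). The call ended without any one of sham prednisone 1, 2 or 3 or of MI prednisone 1 or 2 (adjusted p 0.0825 to 0.121). With the value of Gm29216 added, the direction turned: the change was 0.23 (adjusted p = 0.274), and with Gm29216 weighted by length it was -0.20 (adjusted p = 0.382).

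In this comparison 6 members lay wholly below the sham prednisone range (32.2% of all genes did), namely the 4 above with mt-Nd1 and mt-Cytb, and only mt-Co2 lay wholly above it (12.9% of all genes). The log2 change of mt-Co2 was 1.34 (SE 0.55, limma adjusted p = 0.122) as deposited and 0.14 with its copy added. With copies added, 3 members passed, all lower, beside 16.8% of all genes called: mt-Nd2, mt-Nd4l and mt-Nd5. No copy TPM was added to any of these 3, so their log2 changes could not move. Without MI vehicle 3 or without MI prednisone 3 the count as deposited was 5, and it was 2 without any one of sham prednisone 1 to 3 or of MI prednisone 1 or 2.

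The effect of prednisone among infarcted hearts involved some of the same members. Here 2 fell and 1 rose, in a comparison where 34.9% of all genes were called lower, 2.5% higher and 37.4% in all. The members' median log2 change was -0.05, beside -0.41 for all genes. Without MI vehicle 3 these medians were -0.24 and -0.22, and after median-ratio rescaling they were 0.42 and -0.02, so the sign of the members' median depended on the scale. This comparison and the one between prednisone-treated groups share the MI prednisone libraries, so their results are not independent.

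The fall of mt-Nd5 was -1.35 on the log2 scale (SE 0.26, limma adjusted p = 0.00324). All 3 MI prednisone hearts lay below all 3 MI vehicle hearts, the only member for which this held, where 42.6% of all genes did so. The call remained when any single library was left out, and ended after the length correction (-0.995, adjusted p = 0.0918), after median-ratio rescaling (-0.88, adjusted p = 0.0970) and in a fit of these 6 libraries alone (adjusted p = 0.0544).

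The fall of mt-Nd4l was -1.19 (SE 0.31, limma adjusted p = 0.0122). Its MI vehicle values were 33679, 34186 and 21286.5 TPM, so the lowest of them, from MI vehicle 3, was below MI prednisone 3 and the groups overlapped. Without MI prednisone 1 the change was -0.998 (adjusted p = 0.0522), and after the length correction it was -0.83 (adjusted p = 0.338).

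The rise was that of mt-Nd3, a small complex I subunit. It measured 9598, 12837 and 8095 TPM in MI vehicle and 18764, 12999 and 17568 in MI prednisone. The groups just missed each other, between MI vehicle 2 and MI prednisone 2, and such a separation upward was found in 3.59% of all genes. The log2 change of 0.70 (SE 0.19, limma adjusted p = 0.0141) became 0.60 (adjusted p = 0.0585) without MI prednisone 1 and 0.54 (adjusted p = 0.0547) with Gm28438 added, since that copy held 4694 TPM in MI vehicle 1 and 8.13 to 860 TPM in the other infarcted hearts.

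The remaining complex I genes did not pass: mt-Nd2 changed by -0.57 (SE 0.24, limma adjusted p = 0.0760), mt-Nd6 by -0.26 (SE 0.21), mt-Nd1 by -0.02 (SE 0.17) and mt-Nd4 by 0.01 (SE 0.17). The complex III gene mt-Cytb changed by 0.10 (SE 0.15) and the complex V genes by -0.85 (SE 0.36, adjusted p = 0.0822) for mt-Atp8 and -0.05 (SE 0.19) for mt-Atp6. The count of members called moved most with 3 libraries. It was 6 without MI vehicle 3, 7 without MI prednisone 3 and 1 without MI prednisone 1. The share of all genes called in those fits is not given here, so these counts describe stability only.

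With copies added, 4 members passed, beside 37.4% of all genes: mt-Nd4l and mt-Nd5 fell as before, and mt-Co1 and mt-Co2 rose. No copy TPM was added to mt-Nd4l or mt-Nd5, so their log2 changes could not move. The sum of mt-Co2 and Gm28661 was 54429, 56124 and 39422 TPM in MI vehicle and 63382, 64978 and 73302 in MI prednisone. These ranges did not overlap, and the log2 change was 0.44 (SE 0.14, limma adjusted p = 0.0327). Neither part of that sum passed alone: mt-Co2 changed by 0.91 (SE 0.55, adjusted p = 0.204) and Gm28661 by 0.34 (SE 0.13, adjusted p = 0.0606). With copies added the count was 5 without MI vehicle 3, 6 without MI prednisone 3 and 2 without MI prednisone 1.

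The rise of mt-Co1 with its copy rested on the copy. Gm29216 measured 33806.5, 41709 and 32339.9 TPM in MI vehicle and 92268, 106431 and 80724 in MI prednisone, with 36110.2 to 52441.5 in the sham hearts. Every MI prednisone heart was above every other heart, and the log2 change from MI vehicle was 1.37 (SE 0.16, limma adjusted p = 0.000593). The row of mt-Co1 itself measured 63669.8, 65186 and 45025 TPM in MI vehicle and changed by -0.36 (SE 0.19, adjusted p = 0.149). Their plain sum rose by 0.57 (SE 0.14, adjusted p = 0.00848), while their length-weighted sum changed by 0.13 (adjusted p = 0.509).

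**Figure D3:**
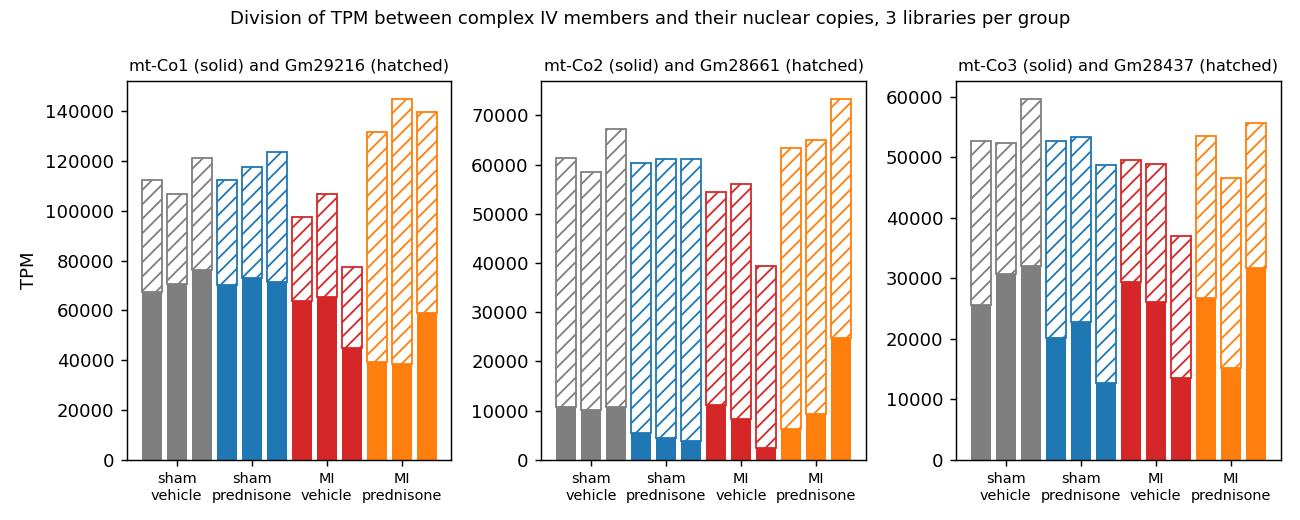
TPM of the complex IV genes (solid bars) and of their nuclear copies (hatched, stacked on top), with 1 bar for each library. The division between solid and hatched varies between libraries for mt-Co2 and mt-Co3, and for mt-Co1 the hatched part is 80724 to 106431 TPM in MI prednisone and at most 52441.5 TPM elsewhere.

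Among sham hearts, prednisone gave 0 called members with limma as run here or without its trend. The share of all genes called was 0.114%, and 1 member, mt-Co2, had an unadjusted p under 0.05. It measured 10800.2, 10168 and 10681.5 TPM with vehicle and 5429, 4406.5 and 3724 with prednisone, so the groups were well separated. Its log2 change was -1.24 (SE 0.55, limma adjusted p = 1). With Gm28661 added the values were 61410.5, 58389 and 67205 against 60354, 61078.5 and 61103 TPM, and the groups overlapped. The only other member whose sham groups did not overlap was mt-Co3, also lower with prednisone. Downward separation of this kind was seen in 2.58% of all genes, and with copies added in 0 members, beside 2.56% of all genes.

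The difference between the prednisone effects after MI and after sham surgery was tested directly. It passed for 2 members, beside 21.3% of all genes: mt-Nd5 at -1.26 (SE 0.36, limma adjusted p = 0.0323) and mt-Nd3 at 0.86 (SE 0.26, adjusted p = 0.0401). The prednisone effects in sham were -0.08 for mt-Nd5 and -0.16 for mt-Nd3. The mt-Nd3 call ended with its copy added, while that of mt-Nd5, which has no copy in the cluster, remained (adjusted p = 0.0318). Both calls were fragile to the loss of a library: 3 of the 12 leave-one-out fits kept mt-Nd5 and 2 kept mt-Nd3.

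**Figure D4:**
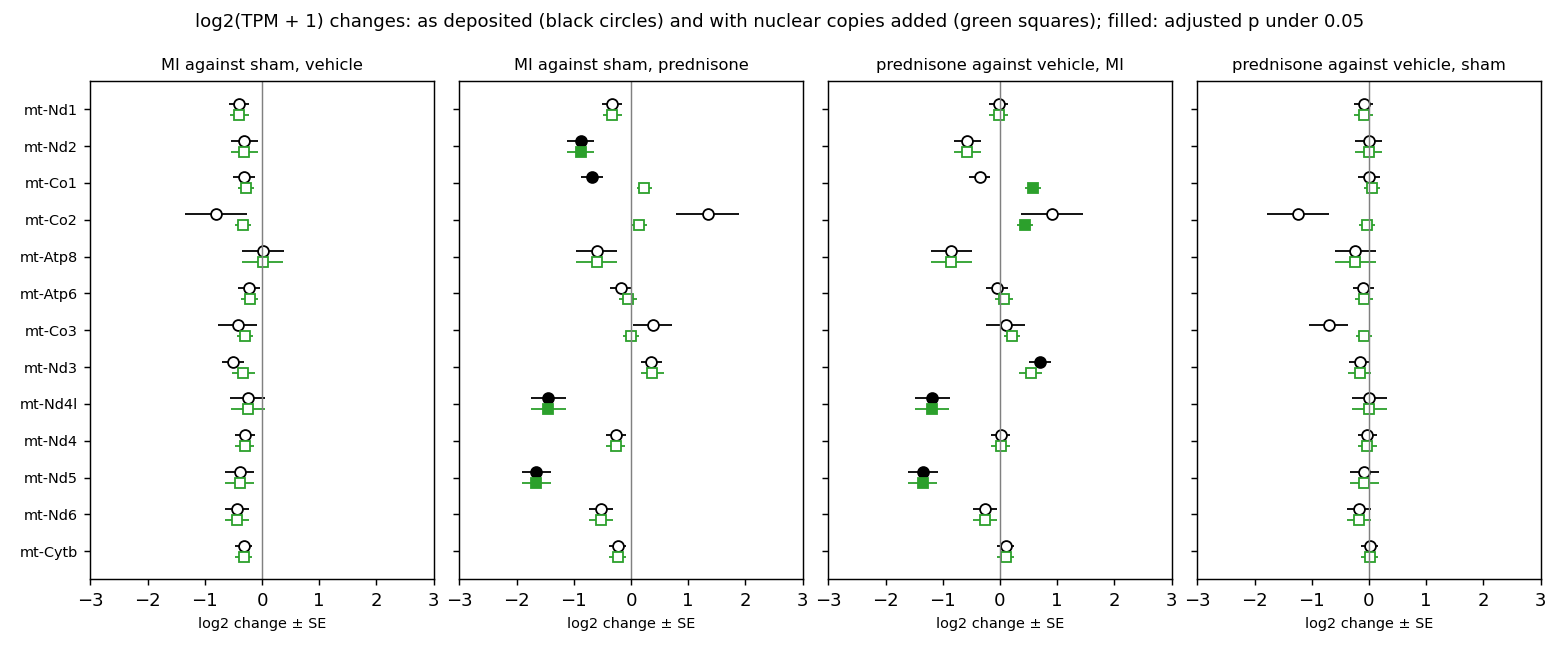
Log2 changes of the 13 members in 4 comparisons, with bars of 1 standard error, as deposited (black circles) and with nuclear copies added (green squares), filled where the adjusted p was under 0.05. The complex I genes mt-Nd5 and mt-Nd4l lie farthest below 0 in both comparisons that involve MI prednisone, and mt-Co1 lies on opposite sides of 0 with and without its copy there.

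Shares of the mitochondrial total describe the mix apart from its size. In sham vehicle, mt-Nd5 made up 2.99%, 3.01% and 3.07% of the 13-row total, and in MI vehicle it made up 2.80%, 2.80% and 2.90%. In MI prednisone it made up 1.01%, 1.39% and 1.52%. The 9 other libraries thus stayed between 2.80% and 3.16%, although the mitochondrial total itself ranged from 23.1% to 42.0% of TPM among them. The share of mt-Nd4l was 8.82% to 9.98% in those 9 libraries and 3.98%, 4.30% and 6.33% in MI prednisone. The share of mt-Nd3 went the other way, from 2.73% to 3.84% in those 9 to 7.61%, 6.01% and 4.89%.

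On this scale, prednisone after MI changed 3 members (0.722% of all genes were called): mt-Nd5 by -1.13 (SE 0.18, limma adjusted p = 0.0128), mt-Nd4l by -0.98 (SE 0.18, adjusted p = 0.0340) and mt-Nd3 by 0.91 (SE 0.19, adjusted p = 0.0477). That count was 0 without MI prednisone 1 and 1 without each of the other libraries except MI prednisone 3, whose removal left 3. Infarction under prednisone lowered 2 (0.418% of all genes), mt-Nd5 by -1.27 (SE 0.18, adjusted p = 0.00560) and mt-Nd4l by -1.06 (SE 0.18, adjusted p = 0.0199). That count was 0 without MI prednisone 1, 1 without sham vehicle 1 or 3, any of sham prednisone 1 to 3 or MI prednisone 2, and 4 without MI prednisone 3. No member's share passed for infarction with vehicle (0.616% of all genes) or for prednisone in sham (0.0076%), where 0 and 2 members had an unadjusted p under 0.05. On this scale nuclear genes are divided by a mitochondrial total that ran from 21.6% to 42.0% of TPM. The percentages of all genes called here are therefore no like-for-like background for the members. On TPM, 37.4% of all genes were called for prednisone after MI and 16.8% for infarction under prednisone.

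When copies were added to both the members and the total, prednisone after MI changed the shares of 7 members (19.4% of all genes). The falls were mt-Nd5 by -1.47 (SE 0.17), mt-Nd4l by -1.31 (SE 0.21), mt-Atp8 by -0.97 (SE 0.25) and mt-Nd2 by -0.70 (SE 0.15), and the rises were mt-Co1 by 0.45 (SE 0.11), mt-Nd3 by 0.41 (SE 0.13) and mt-Co2 by 0.32 (SE 0.09). Weighting the copies by length left 5 members called, without mt-Co1 (0.14, adjusted p = 0.354) and mt-Atp8 (-0.84, adjusted p = 0.0515). Leaving out 1 library left between 3 and 7. Infarction under prednisone changed the shares of 3 members on this scale (2.37% of all genes), mt-Nd5 by -1.54 (SE 0.17), mt-Nd4l by -1.33 (SE 0.21) and mt-Nd2 by -0.77 (SE 0.15). The limit on the percentages of all genes holds here too.

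Ratios within an RNA cancel each library's scale but keep the length correction of TPM. For the short genes mt-Nd4l and mt-Atp8 that correction depends on the effective lengths used. These are not given, and whether they differed between libraries is unknown. Since mt-Nd4l and mt-Nd4 are carried on 1 messenger RNA, with mt-Nd4l at its 5′ end, their TPM ratio compares the ends of that RNA. The sham hearts had ratios of 1.47, 1.53 and 1.61 with vehicle and of 1.62, 1.59 and 1.50 with prednisone, and MI vehicle hearts had 1.69, 1.56 and 1.54. It was 0.591, 0.545 and 1.04 in MI prednisone. All 9 other libraries lay within a narrow band above these 3. The smallest two-sided p of an exact permutation test between groups of 3 is 0.1, and no p is given for the ratios.

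The RNA of mt-Atp8 and mt-Atp6 showed a less clear separation. The ratio of mt-Atp8, at its 5′ end, to mt-Atp6 was 0.472, 0.402 and 0.694 in MI prednisone. In MI vehicle it was 0.924, 1.03 and 0.736, above all of these. The vehicle-treated sham hearts had 0.755, 0.750 and 0.753, and the prednisone-treated ones 0.731, 0.816 and 0.533, the last of which lay inside the MI prednisone range.

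The copy Gm29216 matches only the 3′ end of mt-Co1. It is a separate chromosome 1 row, and since reads of the shared stretch cannot be assigned, its ratio to mt-Co1 is no measured ratio within 1 RNA. The ratio of Gm29216 to mt-Co1 was 0.512 to 0.736 in the 9 other libraries and 2.35, 2.77 and 1.37 in MI prednisone. In the same libraries mt-Nd5 relative to its downstream neighbour mt-Cytb was 0.0988, 0.0999 and 0.166, against 0.285 to 0.349 elsewhere. MI prednisone 3 was the closest of the 3 to the other groups in each of these 4 ratios.

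**Figure D5:**
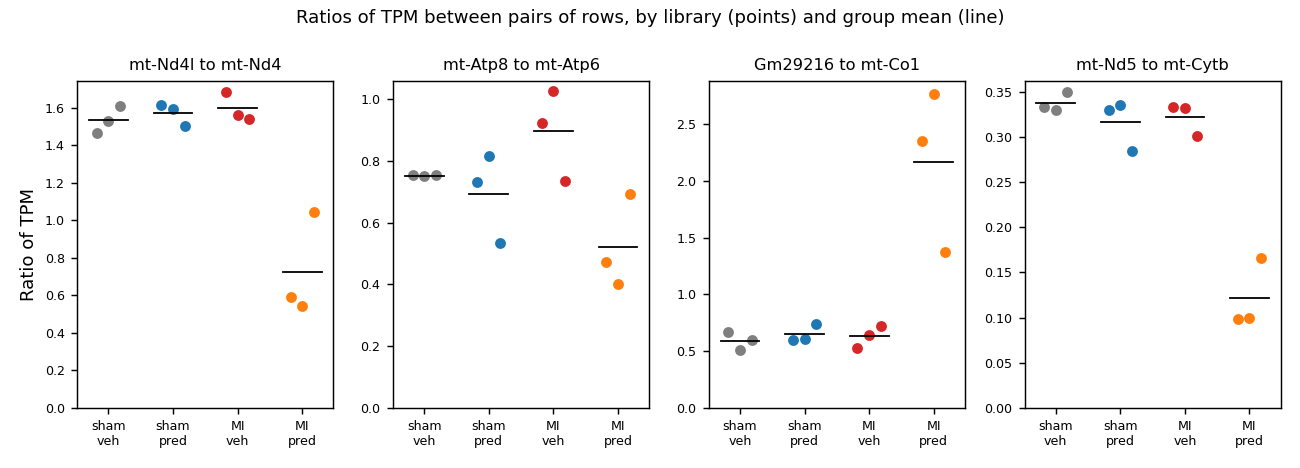
Ratios of TPM between rows of 1 RNA (mt-Nd4l to mt-Nd4, mt-Atp8 to mt-Atp6), between a chromosome 1 copy and its parent (Gm29216 to mt-Co1) and between neighbouring genes (mt-Nd5 to mt-Cytb), with a point for each library, a line for the group mean and axes from 0. The 3 MI prednisone libraries stand apart in all panels except that of mt-Atp8 to mt-Atp6, where 1 sham prednisone library at 0.533 lies among them.

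The position of a member in its RNA was set against its change in each comparison. This measure was chosen after the values were seen. Distance was counted from the middle of each gene to the 3′ end of its annotated RNA, taking mt-Atp8 with mt-Atp6 and mt-Nd4l with mt-Nd4 as 1 RNA each, and ran from 174 bases for mt-Nd3 to 1519 for mt-Nd4l. Across the 13 genes, Spearman's rho between distance and log2 change was -0.73 for infarction under prednisone and -0.69 for prednisone after MI. It was 0.57 for infarction with vehicle and 0.59 for prednisone in sham, so a relation of opposite sign was found without the MI prednisone libraries. With copies added, the first pair was -0.54 and -0.48, and with copies weighted by length it was -0.66 and -0.60. The second pair was 0.37 and 0.54 with copies added, and 0.34 and 0.54 with copies weighted by length. Between a member's own length and its change, rho as deposited was -0.20 for infarction under prednisone and -0.04 for prednisone after MI. It was -0.08 for infarction with vehicle and 0.45 for prednisone in sham. The genes share libraries and, in some cases, RNAs, so they are not independent points.

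Another measure, of transcript length rather than position, was taken on nuclear genes. In each library, Spearman's rho across nuclear genes was computed between transcript length and the change from the sham vehicle mean. It was -0.383, -0.398 and -0.254 in MI prednisone 1, 2 and 3, and between -0.119 and 0.235 in the 9 other libraries. Long nuclear transcripts were thus relatively low in the same 3 libraries in which mt-Nd5 and mt-Nd4l were low, and MI prednisone 3 had the weakest value of the 3. The part of RNA integrity or of library preparation in the mitochondrial changes was not tested, and neither can be told apart from the group, since no MI prednisone library lacked the pattern. After a correction of every library for this length dependence, mt-Nd5 still fell for infarction under prednisone (adjusted p = 0.0479) and no member passed for prednisone after MI. That correction removes each library's fitted level along with its length trend. The part of length in the lost calls was thus not tested apart from the change of scale.

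Many nuclear-encoded subunits of the same complexes passed the test for prednisone after MI, where 2.5% of all genes tested rose and 34.9% fell. Of 36 complex I subunits tested 27 rose and 0 fell, with a median log2 change of 0.41, led by Ndufa3 (0.78, SE 0.13, limma adjusted p = 0.00166) and Ndufa5 (0.78, SE 0.12, adjusted p = 0.00152). Of 9 complex III subunits 5 rose and 1, Uqcrc2, fell (-0.38, SE 0.10, adjusted p = 0.0162). Of 12 complex IV subunits 11 rose, including Cox7a1, the muscle form of its subunit (0.79, SE 0.13, adjusted p = 0.00158), and of 15 complex V subunits 13 rose, including Atp5b (0.65, SE 0.13, adjusted p = 0.00392), the catalytic beta subunit. After the length correction the counts that rose were 13 of 31, 2 of 8, 7 of 12 and 7 of 15, and after median-ratio rescaling they were 34, 8, 12 and 14 of the subunits tested as deposited. The share of all genes called after the length correction is not given here. The difference between these subunits and the mitochondrial members was not tested. Markers were called too: 5 of 12 cardiomyocyte markers and 3 of 6 atrial markers rose, 8 of 10 fibroblast, 6 of 10 macrophage and 3 of 8 smooth muscle and pericyte markers fell, and of 10 endothelial markers 1 rose and 3 fell. The falls of 3 of 8 and 3 of 10 are near the 34.9% of all genes that fell. Without MI vehicle 3, 2 cardiomyocyte markers rose and 3 fell, 3 atrial markers rose, and 6 fibroblast, 4 macrophage and 1 smooth muscle and pericyte markers fell. Their part was not tested.

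In the other comparisons the counts of nuclear subunits depended on the scale or were low. As deposited, infarction with vehicle lowered 1 of the complex I, 1 of the complex IV and 1 of the complex V subunits, respectively Ndufv2 (-0.29), Cox7a1 (-0.53) and Atp5c1 (-0.27), and raised 0. After median-ratio rescaling it lowered 13 of 36 complex I, 3 of 9 complex III, 4 of 12 complex IV and 6 of 15 complex V subunits, with medians from -0.76 to -0.63. Without MI vehicle 3, 0 passed on the deposited scale. For the rescaled counts the share of all genes called lower is not given here. Infarction under prednisone, where mt-Nd5, mt-Nd4l and mt-Nd2 were lower, raised 2 and lowered 1 of the 36 complex I subunits, with a median of 0.17. It lowered 1 complex III and 1 complex V subunit and raised 2 of complex IV. For prednisone in sham, 0 of the subunits of complexes I, III, IV and V passed.

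Genes that transcribe, process and stabilise mitochondrial RNA were described as a list of 58, of which 56 could be tested. With prednisone after MI 3 rose and 14 fell as deposited (median -0.17), but 17 rose and 1 fell after median-ratio rescaling, and 10 rose and 1 fell of 52 after the length correction, so the direction of the list depends on the scale. All-gene calls turned likewise, from 329 higher and 4588 lower as deposited to 1887 and 1819 after median-ratio rescaling, which moved the median of all genes from -0.41 to -0.02.

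The polymerase and its factors did not pass in this comparison, except one. The mitochondrial RNA polymerase gene Polrmt changed by 0.42 (SE 0.16, limma adjusted p = 0.0633), the packaging and transcription factor gene Tfam by -0.48 (SE 0.20, adjusted p = 0.0790), the elongation factor gene Tefm by -0.08 (SE 0.13) and Mterf1a by 0.10 (SE 0.17). The initiation factor gene Tfb2m fell by -0.57 (SE 0.15, adjusted p = 0.0151). Lrpprc, whose protein stabilises mitochondrial messenger RNAs together with that of Slirp, fell by -0.50 (SE 0.12, adjusted p = 0.00838), and Slirp changed by 0.37 (SE 0.14, adjusted p = 0.0521). These changes are on the deposited scale, on which the median gene changed by -0.41.

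The same list holds 4 regulators of nuclear genes for mitochondria, and for prednisone after MI Ppargc1a and Gabpa passed while Nrf1 (-0.72, SE 0.32, limma adjusted p = 0.0981) and Esrra (0.09, SE 0.11, adjusted p = 0.534) did not. Nrf1 and Esrra are named after their values were seen. Ppargc1a, the coactivator PGC-1alpha, averaged 16.0 ± 2.11 TPM with vehicle and 20.1 ± 1.08 with prednisone in sham hearts, and 12.1 ± 1.62 and 5.82 ± 1.98 after MI (SD, n = 3). Its log2 change was -0.98 (SE 0.19, limma adjusted p = 0.00338) for prednisone after MI and -1.66 (SE 0.19, adjusted p = 0.00116) for infarction under prednisone. Gabpa, which encodes the DNA-binding part of a nuclear respiratory factor, changed by -1.25 (SE 0.15, adjusted p = 0.000724) and -1.41 (SE 0.15, adjusted p = 0.00116). Of other genes in the list, Fastkd2, an RNA-binding protein of mitochondrial RNA granules, rose by 0.66 (SE 0.18, adjusted p = 0.0147) and 0.60 (SE 0.18, adjusted p = 0.0392), and Mrpl12, a mitochondrial ribosomal protein, rose by 0.37 (SE 0.10, adjusted p = 0.0180) in the first of these.

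Infarction under prednisone raised 2 and lowered 12 of the 56 genes of this list as deposited, and raised 6 and lowered 7 after median-ratio rescaling. Polrmt was among the rises (0.81, SE 0.16, limma adjusted p = 0.00765) and Lrpprc (-0.95, SE 0.12, adjusted p = 0.00124) and Tfb2m (-0.52, SE 0.15, adjusted p = 0.0414) among the falls. Infarction with vehicle raised 2, the oligoribonuclease gene Rexo2 (0.62, SE 0.15, adjusted p = 0.0248) and the pseudouridine synthase gene Trub2 (0.58, SE 0.15, adjusted p = 0.0278), and lowered 0, whereas after median-ratio rescaling it raised 0 and lowered 3. Prednisone in sham changed 0 of the 56, also after that rescaling.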

How the data were processed

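RNA was measured in myocardium of 12 mice, assigned to groups from their sample titles. The values are TPM deposited by the authors in a table of 105129 transcript rows; the submitters' processing notes name Trimmomatic, HISAT2, kallisto and build mm10, without roles, versions or strand settings. Libraries were TruSeq stranded mRNA, per the labels' protocols. TPM holds no depth.

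Rows were summed by symbol. Genes of at least 1 TPM in at least 3 libraries (13158, all 13 members among them) were fitted as log2(TPM + 1), a scale that understates changes of low genes, with limma 3.58.1 in R 4.3.3 (a mean per group, eBayes with intensity trend), Benjamini-Hochberg adjustment over all of them and calls at adjusted p under 0.05. A further fit used values rescaled so that each library's mitochondrial rows summed to 1000000. Shared replicate numbers mark different animals. Transcripts of GENCODE M21 (94.7% of row identifiers matched) gave coordinates, lengths, sequences and alignments.

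All members and copies are named. From each other list, the 2 largest called rises and falls per comparison could be named, with 8 fixed regulators (Polrmt, Tfam, Tfb2m, Tefm, Lrpprc, Slirp, Mterf1a, Ppargc1a). The members and lists were chosen with earlier results of these data known. Alternatives were median-ratio rescaling (scaling each library by the median of its ratios to geometric gene means), scaling to the nuclear total, no filter, a pseudocount of 0.1, no trend, a replicate block, fits of 2 groups, a length correction (loess, span 0.5), adding copies, and leaving out each mouse. Weighting copies by length, and combining copies with the block or with left-out mice, were added after the data were seen. The fit was tested on simulated data.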

Additional observations from a re-analysis of the deposited data

Results flagged for a closer look

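The prednisone effect differed between infarcted and sham hearts for 2 mitochondrial genes, by a test of the difference itself (limma, adjusted over all genes), where 21.3% of all genes also passed. For mt-Nd5 the difference of the effects on log2(TPM + 1) was -1.26 (SE 0.36, adjusted p = 0.0323), with a change of -1.35 after MI and -0.08 after sham surgery, and over its 23 alternatives the adjusted p ran from 0.00285 to 0.495. For mt-Nd3 it was 0.86 (SE 0.26, adjusted p = 0.0401), with changes of 0.70 and -0.16, and the adjusted p ran from 0.0217 to 0.493. With the copy Gm28438 added, the mt-Nd3 difference was 0.70 (adjusted p = 0.0950) and no longer passed.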

How the results depend on the processing

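The 23 results on single members were recomputed under each alternative: 346 values kept their direction and side of the threshold, 131 no longer passed, 18 newly passed and 5 reversed. All 5 reversals were of mt-Co1 with copies added, to 0.23 for infarction under prednisone, to 0.57 for prednisone after MI (both also with the replicate block) and to 0.45 for its share of the mitochondrial total.

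The replicate numbers did not pair the mice (correlations of same-numbered mice from -0.58 to 0.14). With the replicate block, members called were 2 for infarction under prednisone and 0 for the difference of effects, also with copies added, and as shares 1 for infarction under prednisone and 0 for prednisone after MI.

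For infarction under prednisone the count of 4 became 2 after median-ratio rescaling or scaling to the nuclear total, and 1 with no filter or with the length correction, block or not. For prednisone after MI the count of 3 became 0 in a fit of 2 groups or with the length correction, block or not, and 1 with no filter or median-ratio rescaling. For prednisone in sham the fit of 2 groups gave 1 on both scales. For the difference of effects the count of 2 became 1 with copies added, weighted or not, and 0 with no filter, median-ratio rescaling, scaling to the nuclear total or the length correction, block or not. Counts of shares became 1 (infarction under prednisone) and 0 (prednisone after MI) without the trend, and 0 for both with no filter or 2 groups. With copies added they became 7 for prednisone after MI (5 when weighted) and 2 for the difference of effects (1 when weighted), and with weighted copies 4 for infarction under prednisone. The mitochondrial total became 50.2%, 48.7%, 41.9% and 45.2% with copies added as a plain sum in sham vehicle, sham prednisone, MI vehicle and MI prednisone.

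Leaving out each mouse gave 0 to 1 members called for infarction with vehicle, 2 to 5 under prednisone, 1 to 7 for prednisone after MI (2 to 6 with copies), 0 in sham and 0 to 3 for the difference of effects. Counts of shares then ran 0 to 4 for infarction under prednisone (2 to 5 with copies), 0 to 3 for prednisone after MI (3 to 7, with values of 5 and 6 between), 0 to 2 for the difference of effects (0 to 3) and 0 otherwise. The remaining causes of these moves were not tested. Member counts under the alternatives are given here without the share of all genes called in each fit and describe stability only. Depth is unknown.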
